A study of Homo sapiens with 9 samples.

Results

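To find RNA changes not shared by siRNAs against the same gene, the 3 siALKBH5#3 arrays were compared directly with the 3 siALKBH5#1 arrays. These are 6 of the 9 arrays of the series, and the other 3 come from cells given the control siRNA siNC. All groups were PC9 cells, a human lung adenocarcinoma line, transfected with 15 nM siRNA and harvested 96 h later. By their labels the groups differ only in the siRNA, but siALKBH5#1 replicate 1 was scanned apart from the other 8 arrays. The knockdown is transient and acts on a whole culture, and the labels describe the 3 replicates of each group as biological. On each array the m6A-bound RNA (IP) was read in Cy5 and the unbound RNA (Sup) in Cy3. The abundance of an RNA was taken from the Sup signal and from the sum of both fractions (IP+Sup). Of 60541 RNA probes, 40067 were well above background in Sup on all 6 arrays. After outlier-marked spots were left out, 40028 of these were compared in Sup and 39888 in IP+Sup.

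ALKBH5 is a demethylase that removes the methyl group of N6-methyladenosine (m6A) from RNA, and m6A affects how long a transcript lasts and how well it is translated. An siRNA guides a silencing complex to a transcript that matches it along its length, but a guide strand can also lower transcripts that match only its seed, the bases near its 5′ end. siRNAs against the same gene therefore share their target and can differ in the other transcripts they reach. The sequences of both siRNAs were not given in the sources used here. The level of ALKBH5 itself and of epithelial marker genes was not analysed here, because few probes could be paired with a gene. Names were available for 61 RNAs. Of these, 50 carry a RefSeq accession and are measured by 10 spots each, and 11 are on the study's own list of RNAs hypermethylated with both siRNAs, which the study chose on these samples.

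Levels are given as scaled log2 signals, the log2 signal after subtraction of the average for 13 spike-in probes of the same array, so that a negative value is a signal below that of the spike-in RNA. One array, siALKBH5#1 replicate 3, stood apart before any RNA was compared. Its spike-in probes had a mean log2 Sup signal of 12.16, against 8.57 to 9.98 on the other 5 arrays of the comparison, and its median scaled Sup signal over the RNAs tested was -5.57. The median was -3.73 and -3.53 on the other siALKBH5#1 arrays and -4.05, -3.94 and -3.78 on the siALKBH5#3 arrays. Its Sup signals correlated with those of the other 5 arrays at a Pearson r of 0.943 to 0.963 across RNAs, which are not independent replicates. It also had the highest share of RNA spots above background in Sup, 86.6% against 67.3% to 80.7%. In IP+Sup its median was -5.01, against -2.43 and -2.37 with siALKBH5#1 and -3.07, -2.97 and -2.64 with siALKBH5#3. The part of this array in each result was measured by leaving it out.

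**Figure D1:**
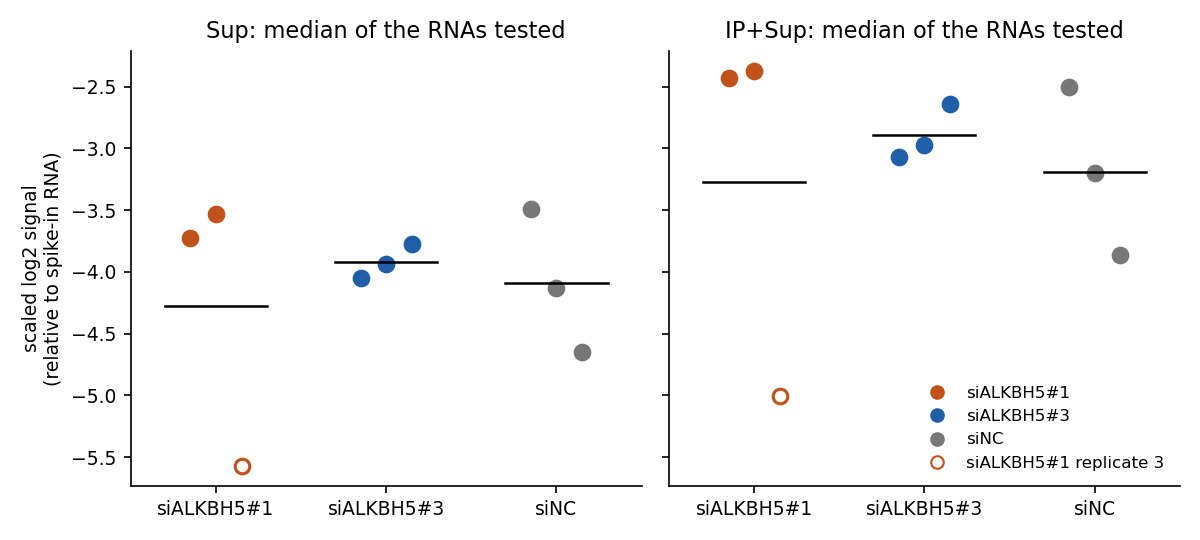
Median scaled log2 signal of the RNAs tested on each array, relative to spike-in RNA, for Sup (left) and IP+Sup (right). Points are arrays, bars are means of 3 arrays, and the open circle is siALKBH5#1 replicate 3, which lies at -5.57 in Sup and -5.01 in IP+Sup.

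The array medians were compared by an exact two-sided permutation test, in which 3 arrays against 3 cannot go below P = 0.1, so that it cannot pass 0.05. The mean of the medians was 0.36 higher on the log2 scale with siALKBH5#3 in Sup (exact permutation P = 1) and 0.38 higher in IP+Sup (exact permutation P = 1). The order turned without siALKBH5#1 replicate 3, and siALKBH5#3 minus siALKBH5#1 was -0.29 in Sup and -0.49 in IP+Sup. Each named RNA is therefore also described relative to the median RNA of its own array, a scale on which such a common shift is absent.

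Over all 6 arrays, 70 RNAs were higher with siALKBH5#3 in Sup (0.175% of those tested) and 31 were lower (0.0774%) by the threshold of the study's methods, a fold change above 1.5 with an unadjusted P under 0.01 in limma. In IP+Sup, 32 RNAs were higher (0.0802%) and 17 lower (0.0426%). After Benjamini-Hochberg adjustment in limma, 0 RNAs passed 0.05 in either readout, while 530 in Sup and 354 in IP+Sup had an unadjusted P under 0.05, and the methods' t-test after the same adjustment also gave 0.

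Without siALKBH5#1 replicate 3, 1843 RNAs were higher with siALKBH5#3 in Sup (4.61%) and 6628 lower (16.6%), and 8668 passed the adjusted threshold (21.7%). This fit sets 2 arrays against 3. In Sup limma drew the variance of each RNA strongly to a common value (prior degrees of freedom 299, median SE 0.237). A shift of a whole array on the spike-in scale enters the difference of every RNA. The counts and P values are therefore not independent evidence from each RNA. In IP+Sup, 1163 were higher (2.94%) and 6220 lower (15.7%), and 6889 passed the adjusted threshold (17.4%). Of the calls in Sup, 21.8% were higher on the spike-in scale and 62.2% relative to the array medians, so that the split of higher and lower RNAs depends on the scaling. On the latter scale, chosen after seeing the data, 3615 RNAs were higher (9.03%) and 2197 lower (5.49%), and 5333 passed the adjusted threshold (13.3%). In IP+Sup, 4415 were higher (11.2%) and 1947 lower (4.92%), and 5679 passed the adjusted threshold (14.3%). The 70 higher and 31 lower RNAs of all 6 arrays all passed the methods' threshold in the same direction in both fits without that array. Both fits reuse 5 of the 6 arrays, and their median SE in Sup was 0.237 and 0.184, against 0.617 over all 6. This overlap is therefore no separate support. The 70 and 31 RNAs made up 1.94% of the higher and 1.41% of the lower RNAs relative to the array medians. Leaving out any of the other 5 arrays left 0 RNAs past the adjusted threshold in Sup and in IP+Sup.

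**Figure D2:**
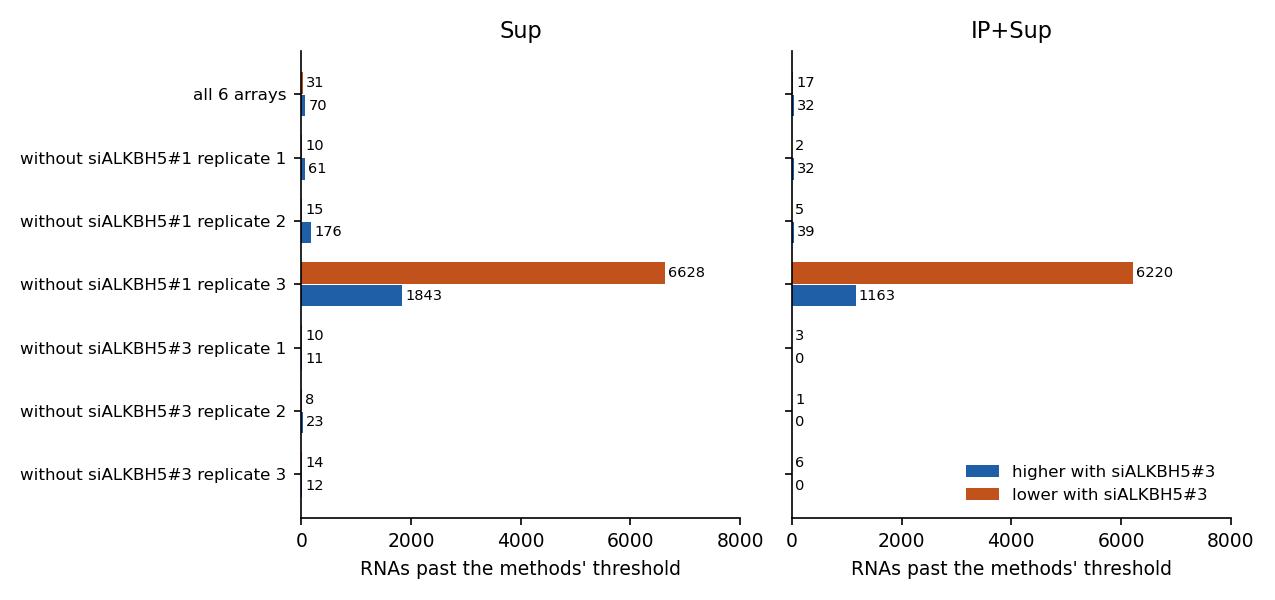
Number of RNAs past the methods' threshold (x axis) over all 6 arrays and with each array left out in turn (y axis), for Sup (left) and IP+Sup (right). Blue bars are RNAs higher and orange bars RNAs lower with siALKBH5#3. The counts rise to 1843 and 6628 in Sup when siALKBH5#1 replicate 3 is left out.

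Of the 61 named RNAs, 57 were tested in Sup. Over all 6 arrays LOX was lower and SAA4 was higher with siALKBH5#3 by the methods' threshold, and the other 55 did not pass. Without siALKBH5#1 replicate 3 and relative to the array medians, 5 of the 57 were higher and 9 lower, beside 9.03% and 5.49% of all RNAs tested. On the spike-in scale without the same array, 2 were higher and 19 lower, beside 4.61% and 16.6%. With all 6 arrays kept and relative to the array medians, 4 were higher (SAA4, LMO2, BAZ1A and RND3) and 5 lower (LOX, SPP1, COL13A1, CHAF1B and DTL) by the methods' threshold, beside 2.41% and 2.2%. In that fit 0 of the 57 passed the adjusted threshold in limma. The adjusted P was 0.0506 for LOX, 0.0712 for SPP1, 0.059 for COL13A1, 0.0992 for CHAF1B, 0.0642 for SAA4, 0.166 for LMO2 and 0.16 for BAZ1A, so that adjusted calls of these genes below rest on leaving out siALKBH5#1 replicate 3. The fit without that array and relative to the array medians is called the relative fit from here on. It keeps replicates 1 and 2 of siALKBH5#1, of which replicate 1 was scanned apart from the other arrays. The part of the scan in this fit was not tested. In the relative fit the median difference of the 57 was -0.064, beside 0.026 over all RNAs tested. There the largest differences of the named RNAs were those of LOX, SPP1, COL13A1, CHAF1B, CENPQ and PPIP5K2, which were lower with siALKBH5#3, and of SAA4, LMO2 and BAZ1A, which were higher.

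**Figure D3:**
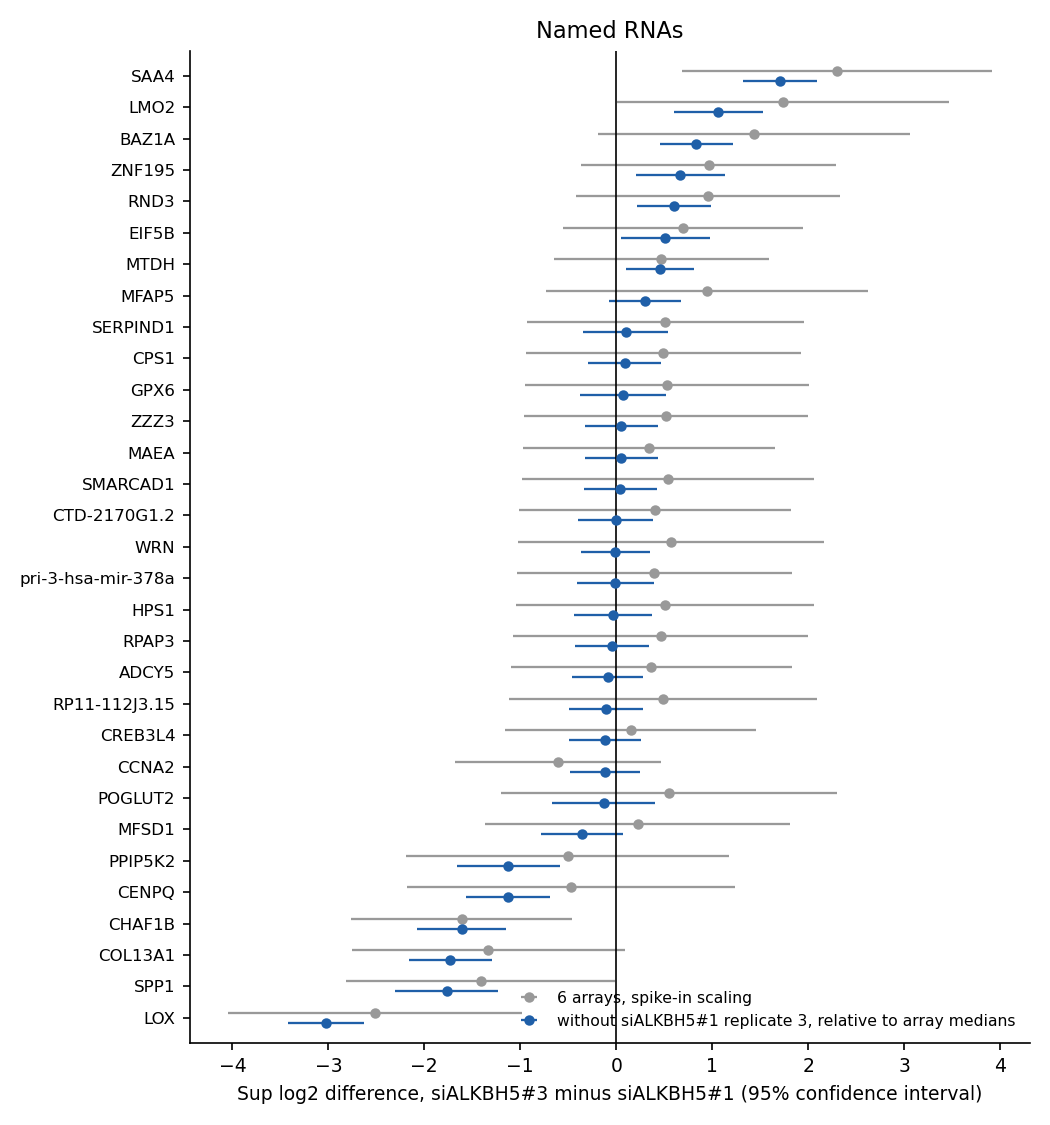
Log2 difference in Sup between siALKBH5#3 and siALKBH5#1 for the 31 named RNAs given by the naming rule, with 95% confidence intervals from limma. Grey points are the fit of all 6 arrays relative to spike-in RNA, and blue points the fit without siALKBH5#1 replicate 3 relative to the array medians. LOX lies at -2.51 and -3.02, and SAA4 at 2.30 and 1.71.

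LOX encodes lysyl oxidase, a secreted enzyme that crosslinks collagen and elastin. It had the largest Sup difference of the named RNAs, over all 6 arrays and in the relative fit. In IP+Sup over all 6 arrays, SAA4 differed by more than LOX (2.72 against -2.52). In Sup its scaled log2 signal was -1.67, -1.35 and -3.91 on the siALKBH5#1 arrays and -4.84, -5.06 and -4.56 on the siALKBH5#3 arrays. The groups did not overlap, although siALKBH5#1 replicate 3 lay nearer to the siALKBH5#3 arrays than to its own group. The signal was 5.71-fold higher with siALKBH5#1 (log2 difference -2.51, SE 0.69, unadjusted P = 0.00436 and adjusted P = 0.999 in limma). The call was lost without siALKBH5#1 replicate 1 (-2.19), siALKBH5#1 replicate 2 (-2.03), siALKBH5#3 replicate 1 (-2.50) or siALKBH5#3 replicate 2 (-2.39), and was kept without either of the other arrays. In RNA from a bulk culture, fewer cells with a transcript and less of it per cell cannot be told apart.

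Relative to the array median, LOX was at 2.06, 2.18 and 1.66 on the siALKBH5#1 arrays and at -0.79, -1.13 and -0.78 on those of siALKBH5#3. On this scale siALKBH5#1 replicate 3 lay close to its own group. Without that array the log2 difference was -3.02 relative to the array medians (SE 0.18, adjusted P = 0.000135 in limma) and -3.31 on the spike-in scale. In IP+Sup the scaled signal was -0.28, -0.063 and -3.23 on the siALKBH5#1 arrays and -3.74, -3.97 and -3.42 on those of siALKBH5#3, a log2 difference of -2.52 (SE 0.88, unadjusted P = 0.0224), which did not pass the methods' threshold. With siNC the Sup signal was -3.68, -4.38 and -4.81. Relative to the array medians, the log2 difference of LOX from siNC was 2.32 with replicates 1 and 2 of siALKBH5#1 and -0.70 with siALKBH5#3, both set against the same siNC arrays and given as a description.

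SPP1 encodes osteopontin, a secreted phosphoprotein that binds integrins. Its scaled log2 Sup signal was 4.59, 5.10 and 2.91 on the siALKBH5#1 arrays and 3.09, 2.74 and 2.52 on those of siALKBH5#3. The groups overlapped through siALKBH5#1 replicate 3, and the difference of -1.41 (SE 0.63) did not pass the methods' threshold (unadjusted P = 0.048). The relative values were 8.32, 8.63 and 8.48 against 7.15, 6.68 and 6.30, which did not overlap. On the relative scale the groups were apart in 10.7% of RNAs with siALKBH5#3 lower and in 9.89% with siALKBH5#3 higher. Without the array that stands apart, SPP1 was 3.41-fold higher with siALKBH5#1 on this scale (adjusted P = 0.00204 in limma). In IP+Sup the scaled signals were 6.04, 6.62 and 5.21 against 4.45, 4.19 and 3.97. These did not overlap, but the difference of -1.75 (unadjusted P = 0.0152) did not pass the methods' threshold.

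COL13A1, a collagen that spans the cell membrane, had scaled log2 Sup signals of -4.04, -3.47 and -5.82 on the siALKBH5#1 arrays and of -5.68, -5.87 and -5.79 on those of siALKBH5#3. The 3 siALKBH5#3 arrays lay close together, and siALKBH5#1 replicate 3 lay among them. On the relative scale the siALKBH5#1 values were -0.31, 0.063 and -0.25 and the siALKBH5#3 values -1.62, -1.93 and -2.01, which did not overlap. Over all 6 arrays on the spike-in scale the difference was -1.33 (SE 0.64, unadjusted P = 0.064). The relative difference without siALKBH5#1 replicate 3 was -1.73 (SE 0.19, adjusted P = 0.000868 in limma). With siNC the signal was -5.51, -5.72 and -6.04, and on the relative scale the difference of COL13A1 from siNC was 1.54 with replicates 1 and 2 of siALKBH5#1 and -0.19 with siALKBH5#3.

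**Figure D4:**
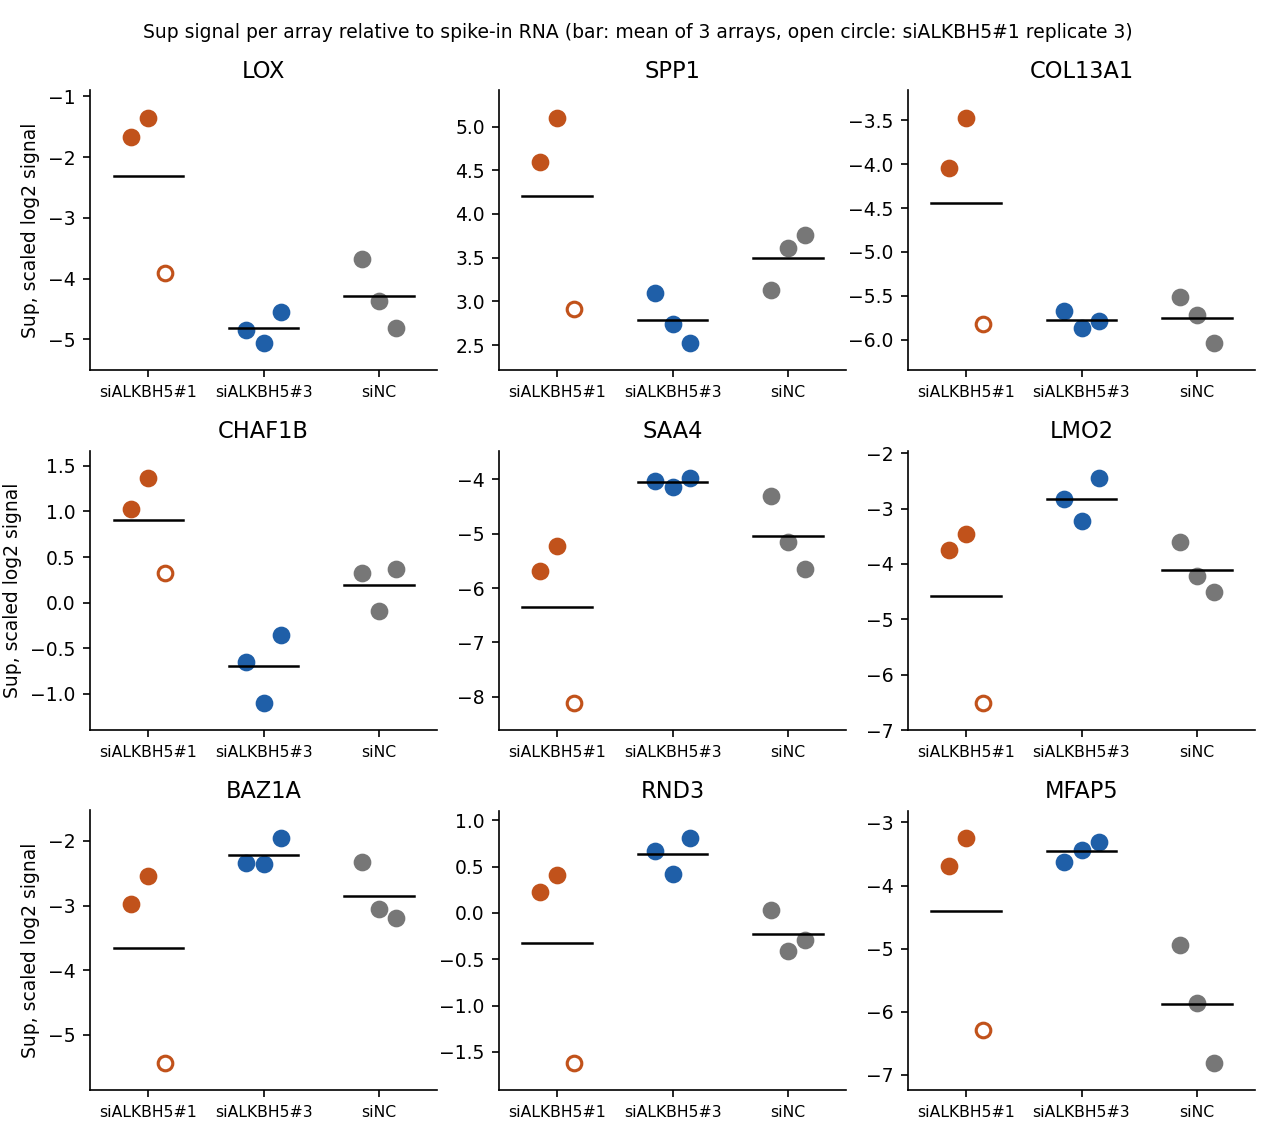
Scaled log2 Sup signal on each array (y axis, relative to spike-in RNA) for 9 named RNAs. Points are arrays, bars are means of 3 arrays, and the open circle is siALKBH5#1 replicate 3. In LOX, CHAF1B, SAA4, LMO2, BAZ1A and RND3 the siALKBH5#1 and siALKBH5#3 arrays do not overlap.

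Not all matrix genes among the named RNAs showed the difference. LOXL2, a lysyl oxidase of the same family as LOX, had a difference of -0.20 over all 6 arrays and of 0.083 relative to the array medians without siALKBH5#1 replicate 3 (unadjusted P = 0.71). MFAP5, a microfibril-associated glycoprotein, had scaled log2 Sup signals of -3.69, -3.24 and -6.28 on the siALKBH5#1 arrays and of -3.63, -3.43 and -3.31 on those of siALKBH5#3, against -4.94, -5.86 and -6.81 with siNC. On the relative scale it was 1.95 above siNC with replicates 1 and 2 of siALKBH5#1 and 2.25 above it with siALKBH5#3. Between the siRNAs its difference was 0.95 over all 6 arrays (SE 0.75, 95% confidence interval -0.73 to 2.62). On the relative scale without siALKBH5#1 replicate 3 it was 0.30 (SE 0.17, 95% confidence interval -0.070 to 0.67, adjusted P = 0.28 in limma). Of the 5 matrix genes, grouped after their values were known, LOX, SPP1 and COL13A1 were lower with siALKBH5#3 in that fit and 0 were higher, beside 5.49% lower and 9.03% higher of all RNAs tested.

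Promoters are shown for LOX, SPP1 and CHAF1B, which were lower with siALKBH5#3 in the relative fit, and for SAA4, which was higher, as 4 examples chosen after their values were seen. Each line holds the 250 bases before the RefSeq start of the gene (GRCh38.p14), read 5′ to 3′ on the gene's strand. LOX is at chr5:122078260-122078509 (minus strand), SPP1 at chr4:87975464-87975713 (plus strand), CHAF1B at chr21:36385142-36385391 (plus strand) and SAA4 at chr11:18236803-18237052 (minus strand). Capitals mark the CCAAT motif on either strand.
LOX: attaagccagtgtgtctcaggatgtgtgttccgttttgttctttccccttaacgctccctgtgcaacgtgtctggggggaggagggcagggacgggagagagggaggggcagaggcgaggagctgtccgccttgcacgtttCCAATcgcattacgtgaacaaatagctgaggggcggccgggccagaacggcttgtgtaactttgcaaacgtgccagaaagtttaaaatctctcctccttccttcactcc
SPP1: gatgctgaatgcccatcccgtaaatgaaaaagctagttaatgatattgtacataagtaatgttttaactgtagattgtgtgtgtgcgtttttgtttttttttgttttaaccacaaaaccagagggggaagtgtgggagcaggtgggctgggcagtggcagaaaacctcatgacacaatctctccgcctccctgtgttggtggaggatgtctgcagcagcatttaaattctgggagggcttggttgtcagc
CHAF1B: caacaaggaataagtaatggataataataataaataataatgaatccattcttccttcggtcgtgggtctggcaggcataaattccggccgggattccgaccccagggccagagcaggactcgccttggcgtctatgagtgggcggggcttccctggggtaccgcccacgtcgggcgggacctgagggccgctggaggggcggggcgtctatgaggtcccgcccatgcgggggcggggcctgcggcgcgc
SAA4: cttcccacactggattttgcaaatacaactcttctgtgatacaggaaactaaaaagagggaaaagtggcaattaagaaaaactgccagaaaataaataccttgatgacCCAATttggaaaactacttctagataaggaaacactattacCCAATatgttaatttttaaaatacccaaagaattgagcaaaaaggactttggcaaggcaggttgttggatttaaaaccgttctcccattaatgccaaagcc
CCAAT (or ATTGG on the other strand) was found once for LOX, beginning 109 bases before the start, and for SAA4 beginning 142 and 101 bases before it, while SPP1 and CHAF1B held none in these windows. The motif was in 32% of 35116 such windows, and TATAAA (or TTTATA), in 10.7% of them, was in none of the windows shown. RefSeq promoter entries matched 46 of the 61 named RNAs.

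CHAF1B is a subunit of chromatin assembly factor 1, which places histones on newly replicated DNA. Its scaled log2 Sup signal was 1.03, 1.37 and 0.32 on the siALKBH5#1 arrays and -0.65, -1.10 and -0.35 on those of siALKBH5#3. Every siALKBH5#1 array was above every siALKBH5#3 array, including replicate 3. The difference was -1.61 (SE 0.52, unadjusted P = 0.011), so that CHAF1B was 3.05-fold higher with siALKBH5#1 and just missed the methods' threshold. The fold without siALKBH5#1 replicate 3 was 3.06 relative to the array medians (adjusted P = 0.00166 in limma). In IP+Sup the signals were 2.39, 2.56 and 1.24 against 0.34, 0.064 and 0.71. These did not overlap, but the difference of -1.69 (unadjusted P = 0.019) did not pass the methods' threshold. With siNC the Sup signal was 0.32, -0.092 and 0.37, and on the relative scale the difference from siNC was 0.55 with replicates 1 and 2 of siALKBH5#1 and -1.07 with siALKBH5#3.

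The named RNAs hold 12 genes of DNA replication and repair and 7 of mitosis, groups drawn up after their values were known. Over all 6 arrays 0 of these 19 passed the methods' threshold, and the median difference was -0.048 for replication and repair and -0.10 for mitosis, beside 0.30 over all RNAs tested. Relative to the array medians and without siALKBH5#1 replicate 3, 4 of the 12 were lower with siALKBH5#3 (CHAF1B, WDHD1, RAD54B and DTL) and 0 were higher, beside 5.49% lower and 9.03% higher of all RNAs tested. The median of the 12 was -0.52, beside 0.026 over all RNAs tested. WDHD1, a replication fork protein, was at -0.72 (adjusted P = 0.024), RAD54B, a recombination ATPase, at -0.69 (adjusted P = 0.041), and DTL, which directs the degradation of replication factors, at -0.65 (adjusted P = 0.027, all in limma). In IP+Sup the same fit gave -0.62 for WDHD1 (adjusted P = 0.0487 in limma), while RAD54B at -0.54 (adjusted P = 0.0823 in limma) and DTL at -0.49 (adjusted P = 0.0997 in limma) did not pass. Over all 6 arrays the Sup differences were -0.13, -0.059 and -0.24 for WDHD1, RAD54B and DTL, and those in IP+Sup were 0.081, 0.20 and 0.044. Leaving out 1 array at a time turned the sign in Sup, with ranges of -1.01 to 0.40, -0.98 to 0.47 and -0.94 to 0.21, the lowest of each without siALKBH5#1 replicate 3. Relative to the array medians with all 6 arrays kept, DTL passed the methods' threshold at -0.59 (unadjusted P = 0.0085) without overlap, while WDHD1 and RAD54B did not pass and their groups overlapped, so that the last 2 calls rest on leaving out that array. On the spike-in scale without it, 7 of the 12 were lower and 0 higher, beside 16.6% and 4.61% of all RNAs tested. These names were picked after their values were seen.

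Of the 7 mitosis genes, CENPQ alone passed in the relative fit, as lower, beside 5.49% lower and 9.03% higher of all RNAs tested. On the spike-in scale without siALKBH5#1 replicate 3, 2 of the 7 were lower and 0 higher, beside 16.6% and 4.61%. CENPQ, a subunit of the inner kinetochore, had scaled log2 Sup signals of -1.31, -0.998 and -4.01 on the siALKBH5#1 arrays and of -2.74, -2.85 and -2.13 on those of siALKBH5#3. The groups overlapped through siALKBH5#1 replicate 3, on the relative scale too, where its values were 2.42, 2.53 and 1.56 against 1.31, 1.09 and 1.65. The difference was -0.47 over all 6 arrays (SE 0.77) and -1.13 relative to the array medians without siALKBH5#1 replicate 3 (adjusted P = 0.0058 in limma), and so it rests on leaving out that array. CCNA2, the cyclin of S phase and G2, lay at -0.17, 0.23 and 0.62 on the siALKBH5#1 arrays and at -0.46, -0.39 and -0.29 on those of siALKBH5#3. Its groups did not overlap on the spike-in scale, a state found for 2.23% of RNAs in this direction, but did so relative to the array medians. Its difference was -0.61 (SE 0.48) and, in the relative fit without siALKBH5#1 replicate 3, -0.12 (95% confidence interval -0.48 to 0.25). KIF20A, CENPE and PIMREG, which act in mitosis, had differences of -0.081, -0.24 and -0.064 in that fit and did not pass. ITGB3BP was at -0.60 and SPDL1 lay the other way at 0.55, and neither passed.

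PPIP5K2, a kinase that makes inositol pyrophosphates, had scaled log2 Sup signals of -1.12, -0.80 and -3.69 on the siALKBH5#1 arrays and of -2.41, -2.88 and -1.85 on those of siALKBH5#3. Here too replicate 3 of siALKBH5#1 lay below all siALKBH5#3 arrays. The difference was -0.51 over all 6 arrays (SE 0.76) and -1.13 relative to the array medians without siALKBH5#1 replicate 3 (adjusted P = 0.0145 in limma). The relative values, 2.61, 2.73 and 1.88 against 1.65, 1.06 and 1.93, overlapped, and the relative fit of all 6 arrays did not pass the methods' threshold (unadjusted P = 0.037), so that this call too rests on leaving out that array.

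SAA4 encodes a serum amyloid A apolipoprotein made mainly in the liver, and it was the named RNA that was higher with siALKBH5#3 by the methods' threshold. Its scaled log2 Sup signal was -5.69, -5.24 and -8.11 on the siALKBH5#1 arrays and -4.04, -4.13 and -3.97 on those of siALKBH5#3. The groups did not overlap, and the siALKBH5#3 arrays lay close together. The lowest signals above background on the siALKBH5#1 arrays were -6.95, -6.25 and -9.84, so that SAA4 was dim there. The signal was 4.92-fold higher with siALKBH5#3 (log2 difference 2.30, SE 0.73, unadjusted P = 0.00978 and adjusted P = 0.999 in limma). The call was lost without siALKBH5#3 replicate 1 (2.29), replicate 2 (2.34) or replicate 3 (2.26), and was kept without any 1 array of siALKBH5#1.

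Relative to the array median, SAA4 was at -1.96, -1.70 and -2.54 on the siALKBH5#1 arrays and at 0.017, -0.20 and -0.19 on those of siALKBH5#3. With siALKBH5#1 replicate 3 left out it was 3.26-fold higher with siALKBH5#3 on this scale (log2 difference 1.71, SE 0.17, adjusted P = 0.000565 in limma) and 2.67-fold higher on the spike-in scale. In IP+Sup the scaled signals were -4.37, -4.10 and -7.63 against -2.67, -2.86 and -2.39. These did not overlap, but the difference of 2.72 over all 6 arrays (SE 0.95, unadjusted P = 0.0219) did not pass the methods' threshold. With siNC the Sup signal was -4.31, -5.16 and -5.64, and on the relative scale the difference from siNC was -0.88 with replicates 1 and 2 of siALKBH5#1 and 0.82 with siALKBH5#3.

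LMO2, an adaptor protein of transcription complexes known from blood cell development, had scaled log2 Sup signals of -3.75, -3.45 and -6.51 on the siALKBH5#1 arrays and of -2.82, -3.22 and -2.44 on those of siALKBH5#3. BAZ1A, a subunit of chromatin remodelling complexes, lay at -2.97, -2.54 and -5.44 on the siALKBH5#1 arrays and at -2.34, -2.35 and -1.95 on those of siALKBH5#3. In both genes all siALKBH5#3 arrays were above all siALKBH5#1 arrays, as in 4.67% of RNAs on the spike-in scale, and siALKBH5#1 replicate 3 was far below the rest. The difference was 1.74 for LMO2 (SE 0.78, unadjusted P = 0.049) and 1.44 for BAZ1A (SE 0.73, unadjusted P = 0.078), and neither passed the methods' threshold. Without siALKBH5#1 replicate 3 and relative to the array medians, LMO2 was 2.09-fold higher with siALKBH5#3 (adjusted P = 0.00987 in limma) and BAZ1A 1.78-fold higher (adjusted P = 0.012 in limma). On the spike-in scale without that array, LMO2 still passed the methods' threshold at 0.77 and BAZ1A did not at 0.54.

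RND3, which opposes actin stress fibres, and ZNF195, a zinc finger protein, showed smaller differences. RND3 lay at 0.23, 0.41 and -1.62 on the siALKBH5#1 arrays and at 0.66, 0.42 and 0.81 on those of siALKBH5#3, where replicate 2 of both siRNAs differed by little. Its difference was 0.96 over all 6 arrays (SE 0.62) and 0.61 in the relative fit without siALKBH5#1 replicate 3 (SE 0.17, adjusted P = 0.0459 in limma), but 0.31 on the spike-in scale (adjusted P = 0.34 in limma). ZNF195 had a difference of 0.96 (SE 0.60) and of 0.67 in the relative fit, which passed the methods' threshold with an adjusted P of 0.063 in limma. It did not pass at 0.38 on the spike-in scale without siALKBH5#1 replicate 3 (unadjusted P = 0.11), nor in the relative fit of all 6 arrays (unadjusted P = 0.03).

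**Figure D5:**
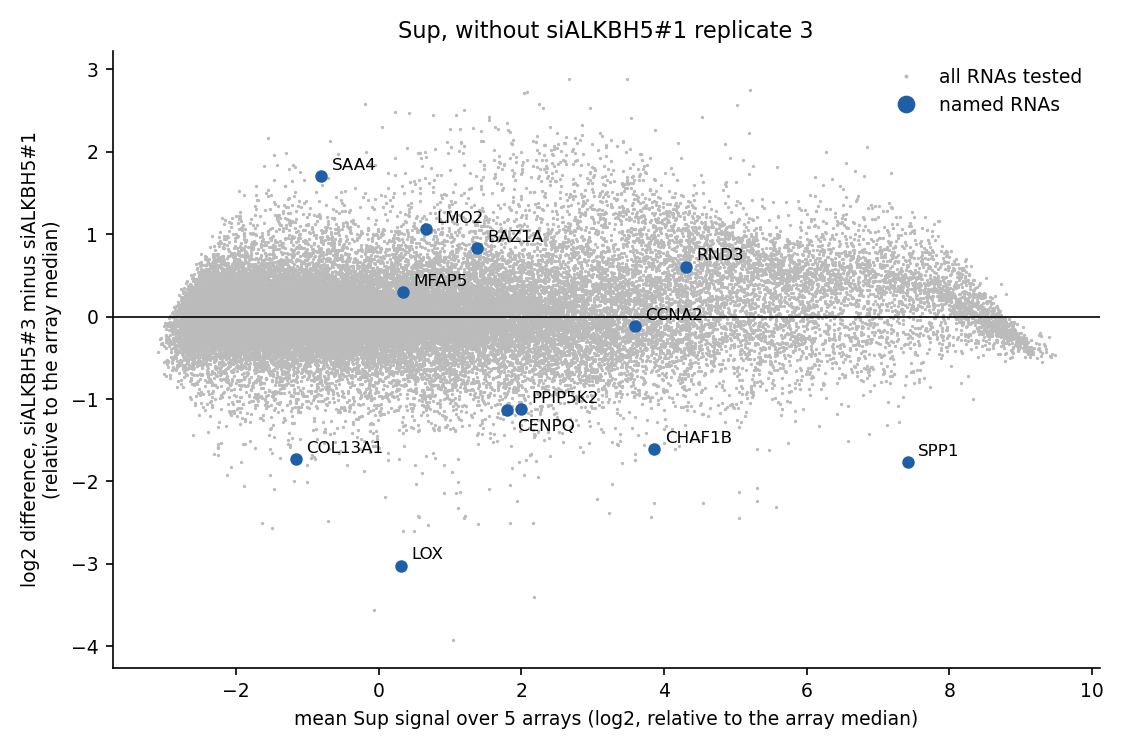
Log2 difference in Sup between siALKBH5#3 and siALKBH5#1 (y axis) against the mean Sup signal over 5 arrays (x axis), both relative to the array median, without siALKBH5#1 replicate 3. Grey dots are all RNAs tested and blue points are 12 named RNAs. LOX lies at -3.02, SPP1 at -1.77 and SAA4 at 1.71.

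The other RNAs given by the naming rule did not pass the methods' threshold in Sup, either over all 6 arrays or in the relative fit. MTDH, an oncoprotein of the endoplasmic reticulum and nucleus, and EIF5B, a translation initiation factor, were at 0.46 (adjusted P = 0.092 in limma) and 0.51 (adjusted P = 0.14 in limma) in the relative fit. WRN, a RecQ helicase, SMARCAD1, a chromatin remodeller, and ZZZ3, a histone acetyltransferase subunit, were at -0.0079, 0.043 and 0.055. RPAP3, which helps assemble RNA polymerases, and POGLUT2, an O-glucosyltransferase of the endoplasmic reticulum, were at -0.046 and -0.13. CPS1, the first enzyme of the urea cycle, and SERPIND1, heparin cofactor II, both liver genes, were at 0.0865 and 0.10. Over all 6 arrays these 9 RNAs had differences of 0.47 to 0.70, with SEs of 0.50 to 0.79, and without siALKBH5#1 replicate 3 on the spike-in scale of -0.42 to 0.22. The other 26 named RNAs lay between -0.42 and 0.41 over all 6 arrays and between -0.72 and 0.64 in the relative fit. In IP+Sup, MTDH passed the methods' threshold in the relative fit at 0.65 (adjusted P = 0.0388 in limma). It did not pass there over all 6 arrays on the spike-in scale (unadjusted P = 0.28 in limma).

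On the study's list of hypermethylated RNAs, 10 of 11 were tested, and 0 passed the methods' threshold in Sup over all 6 arrays or in the relative fit. Among all RNAs tested, 0.175% were higher and 0.0774% lower over 6 arrays, and 9.03% and 5.49% in the relative fit, so that 0 of 10 is near the background. Besides MFAP5, the relative differences were 0.070 for GPX6, a glutathione peroxidase, 0.053 for MAEA, a ubiquitin ligase subunit, -0.036 for HPS1, which acts in lysosome-related organelles, -0.0905 for ADCY5, an adenylyl cyclase, and -0.12 for CREB3L4, a transcription factor. The long noncoding RNAs CTD-2170G1.2 and RP11-112J3.15 were at -0.0072 and -0.10, and the primary transcript pri-3-hsa-mir-378a was at -0.0087. MFSD1, a lysosomal transporter, was at -0.35 (95% confidence interval -0.78 to 0.071). On the spike-in scale without siALKBH5#1 replicate 3 it was at -0.65 and passed the methods' threshold (adjusted P = 0.035 in limma). DGCR11 was above background on 2 of 3 siALKBH5#1 arrays and on all 3 siALKBH5#3 arrays and was not tested. CFTR, ZAP70 and CD69 did not rise well above background on a single one of the 9 arrays. ZAP70 and CD69 are lymphocyte genes, but RHOH and TCF7, also known from lymphocytes, were well above background on all 9.

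Among RNAs whose probes carry no gene name in the tables used here, 32 passed the methods' threshold in Sup and in IP+Sup with groups that did not overlap in either, 17 of them higher and 15 lower with siALKBH5#3. Of all RNAs tested over 6 arrays, 0.175% were higher and 0.0774% lower in Sup, and 0.0802% and 0.0426% in IP+Sup. The 4 given here are the 2 that rose most and the 2 that fell most in Sup among these 32. Their size and lack of overlap were set by that choice, and their P values are no separate support. The probe ASHG19AP1B10507975111 had scaled log2 Sup signals of -0.24, 0.11 and -2.23 on the siALKBH5#1 arrays and of 2.79, 1.97 and 2.41 on those of siALKBH5#3. ASHG19AP1B11308165711 lay at -0.41, 0.10 and -2.73 on the siALKBH5#1 arrays and at 2.24, 1.80 and 2.34 on those of siALKBH5#3. In both, every siALKBH5#3 array was above every siALKBH5#1 array, with differences of 3.18 and 3.14, and their siNC signals of 1.52 to 2.10 and 0.88 to 1.82 were nearer to siALKBH5#3. In the other direction, ASHG19AP1B12356589111 lay at 0.46, 0.71 and -1.16 on the siALKBH5#1 arrays and at -2.97, -3.40 and -2.96 on those of siALKBH5#3. ASHG19AP1B12672527211 lay at -1.58, -1.25 and -1.92 on the siALKBH5#1 arrays and at -4.48, -4.00 and -4.23 on those of siALKBH5#3. Their differences were -3.11 and -2.65, and their siNC signals, -1.86 to -0.95 and -3.67 to -2.71, lay below replicates 1 and 2 of siALKBH5#1 and above all siALKBH5#3 arrays. Relative to the array medians and without siALKBH5#1 replicate 3, the differences of these 4 RNAs were 2.75, 2.57, -3.40 and -2.53, with adjusted P values of 0.000462, 0.000398, 0.000135 and 0.00036 in limma. With all 6 arrays kept on that scale, the adjusted P values were 0.0515, 0.0515, 0.0257 and 0.0712.

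RNAs seen with one siRNA only could not enter these fits. In Sup, 45 RNAs were well above background on all 3 siALKBH5#3 arrays and on none of the siALKBH5#1 arrays, and 24 the other way round. The bound on the fold, taken against the lowest signal above background on each dim array, was at least 2.03-fold at the median for the 45, and at least 8.81-fold for the highest. For the other 24 it was above 1 in 22, at least 1.4-fold at their median and at least 4.61-fold for the highest. With siALKBH5#1 replicate 3 left out the first count was 1232, of which 323 had a bound above 1, at least 1.13-fold at their median and at least 4.17-fold for the highest. The second count was 24, at least 2.33-fold at the median and at least 9.29-fold for the highest. A count of RNAs absent on 2 arrays cannot be lower than one of RNAs absent on 3, and the part of that array's share of spots above background in the first count was not tested.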

How the data were processed

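RNA of PC9 cells was measured on 9 two-colour arrays with m6A-bound RNA (IP) in Cy5 and unbound RNA (Sup) in Cy3, and 6 of the arrays enter the comparison. Total RNA was not fragmented before immunoprecipitation, and the authors added the same amount of spike-in RNA to both fractions before labelling. The deposited scanner files hold intensity values from Agilent Feature Extraction 11.0.1.1, with the local background already subtracted, and the array design uses the human build hg19. The deposited marks, which carry no unit, say whether a spot is well above background, saturated or an outlier. The series table holds the authors' methylation fraction per RNA and was used only to match probes to names.

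Outlier-marked spots were left out, spots of a probe were averaged, and the log2 of the background-subtracted Sup signal, or of IP plus Sup, was scaled by the mean log2 signal of 13 of 102 spike-in probes (those above background on each of the 9 arrays in Cy3 and in Cy5). RNAs well above background in Sup on all 6 arrays entered a fit of the 6 arrays without covariates (limma 3.58.1, R 4.3.3), with Benjamini-Hochberg adjustment over all RNAs tested. The threshold of the study's methods is a fold change above 1.5 with an unadjusted P under 0.01. Leaving out each array, other signals, scalings, filters, weights, blocks and the methods' t-test were tried as alternatives, and the procedure was tested on simulated data. Relative values in Sup are the scaled signal minus the median over the RNAs tested on that array. For IP+Sup the spike-in scaling was not used on this scale. Each channel was first scaled by its own array median, and the sum was then centred on its median. Relative IP+Sup values therefore also weight the fractions differently from those on the spike-in scale.

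Where probes are paired with a gene, the rule names those past the threshold and then those with the largest Sup difference, up to 25, besides the study's list of 11 and 4 probes without a gene name. The RNAs and lists were chosen with earlier results of these data known. siALKBH5#1 replicate 1 was scanned apart from the other 8 arrays. The replicate numbers did not pair the arrays.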

Additional observations from a re-analysis of the deposited data

How the results depend on the processing

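The direction of the whole comparison rests on siALKBH5#1 replicate 3. When each of the 6 arrays was left out in turn, the number of RNAs past the methods' threshold ranged from 11 to 1843 higher and from 8 to 6628 lower in Sup, and from 0 to 1163 higher and from 1 to 6220 lower in IP+Sup. The number past adjusted P ranged from 0 to 8668 in Sup and from 0 to 6889 in IP+Sup, and the difference of the array medians from -0.29 to 0.73 and from -0.49 to 0.83, with each extreme on the negative side, and each highest count, from leaving out that array. Signal, probe filter and scaling also moved the counts, and the causes were not tested. The number of arrays, 3 per siRNA, limits the precision.

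A model of all 9 arrays gave 139 higher and 50 lower in Sup and 85 higher and 42 lower in IP+Sup. The median spot signal without background correction gave 21 higher and 19 lower in Sup and 7 higher and 8 lower in IP+Sup, and normexp 8 higher and 12 lower in Sup and 5 higher and 6 lower in IP+Sup. The dye-normalized processed signal gave 19 higher and 17 lower in Sup and 22 higher and 17 lower in IP+Sup. The methods' t-test gave 35 higher and 102 lower in Sup and 85 higher and 114 lower in IP+Sup. Spots above background on at least 3 of 6 arrays gave 124 higher and 34 lower in Sup and 86 higher and 15 lower in IP+Sup, and both channels above background 51 higher and 51 lower in Sup and 31 higher and 37 lower in IP+Sup. Leaving out spots with an uneven background gave 87 higher and 131 lower in Sup and 77 higher and 103 lower in IP+Sup, and the scan as a block 55 higher and 10 lower in Sup and 19 higher and 4 lower in IP+Sup. None of these gave an RNA at adjusted P under 0.05.

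Median centring of the 6 arrays gave 965 higher and 880 lower in Sup and 1053 higher and 666 lower in IP+Sup, with 3 and 0 RNAs at adjusted P under 0.05 in Sup and IP+Sup. Quantile normalization gave 1291 higher and 877 lower in Sup and 1437 higher and 640 lower in IP+Sup, with 373 and 164 at adjusted P under 0.05. Array weights, which vary with the order of the probes and gave siALKBH5#1 replicate 3 the lowest weight, gave 2578 higher and 6800 lower in Sup and 2017 higher and 11595 lower in IP+Sup, with 11089 and 16518. Both settings that follow were chosen after seeing the data. Without siALKBH5#1 replicate 3, median centring gave 3615 higher and 2197 lower in Sup and 4415 higher and 1947 lower in IP+Sup, with 5333 and 5679, and quantile normalization 2888 higher and 2877 lower in Sup and 3496 higher and 3072 lower in IP+Sup, with 5700 and 6128.

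With the replicate number as a block, the paired fit gave 93 higher and 27 lower in Sup and 10 higher and 3 lower in IP+Sup, and 0 RNAs at adjusted P under 0.05. The deviations of same-numbered arrays correlated at -0.32, -0.18 and -0.47, and the samples share only a number.

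Among the RNAs given by the naming rule, LOX, SPP1, COL13A1, CHAF1B, CCNA2, SAA4, LMO2, BAZ1A, RND3, MTDH and the 4 probes without a gene name kept their direction under every alternative run, in both readouts. Their size did vary. With all alternatives besides leaving out 1 array, the Sup difference ranged from -3.25 to -1.34 for LOX and from -1.84 to -0.23 for COL13A1. For SAA4 it ranged from 0.98 to 2.63 and for CHAF1B from -1.97 to -1.51. The differences of the other RNAs given by the rule turned sign as follows. With array weights they were in Sup -0.29 for WRN, -0.42 for POGLUT2, -0.18 for SMARCAD1, -0.34 for GPX6, -0.22 for ZZZ3, -0.23 for SERPIND1, -0.34 for HPS1, -0.079 for CPS1, -0.42 for RP11-112J3.15, -0.31 for RPAP3, -0.62 for MFSD1, -0.31 for CTD-2170G1.2, -0.33 for pri-3-hsa-mir-378a, -0.30 for MAEA, -0.41 for CREB3L4 and -0.32 for ADCY5, and in IP+Sup -0.052 for ZNF195, -0.40 for MFAP5, -0.52 for EIF5B, -0.67 for WRN, -0.46 for POGLUT2, -0.62 for SMARCAD1, -0.48 for GPX6, -0.59 for ZZZ3, -0.32 for SERPIND1, -0.71 for HPS1, -0.67 for CPS1, -0.93 for RP11-112J3.15, -0.57 for RPAP3, -0.85 for MFSD1, -0.87 for CTD-2170G1.2, -0.77 for pri-3-hsa-mir-378a, -0.76 for MAEA and -0.73 for ADCY5. Without siALKBH5#1 replicate 3 and with median centring they were in Sup -0.0079 for WRN, -0.13 for POGLUT2, -0.036 for HPS1, -0.10 for RP11-112J3.15, -0.046 for RPAP3, -0.35 for MFSD1, -0.0072 for CTD-2170G1.2, -0.0087 for pri-3-hsa-mir-378a, -0.12 for CREB3L4 and -0.091 for ADCY5, and in IP+Sup -0.092 for HPS1, -0.26 for RP11-112J3.15, -0.43 for MFSD1, -0.15 for CTD-2170G1.2, -0.060 for pri-3-hsa-mir-378a, -0.042 for MAEA and -0.15 for ADCY5. Without that array and with quantile normalization they were in Sup -0.0051 for WRN, -0.19 for POGLUT2, -0.029 for ZZZ3, -0.053 for HPS1, -0.12 for RP11-112J3.15, -0.11 for RPAP3, -0.34 for MFSD1, -0.033 for pri-3-hsa-mir-378a, -0.14 for CREB3L4 and -0.085 for ADCY5, and in IP+Sup -0.065 for EIF5B, -0.075 for WRN, -0.050 for SMARCAD1, -0.32 for ZZZ3, -0.090 for HPS1, -0.26 for RP11-112J3.15, -0.33 for RPAP3, -0.42 for MFSD1, -0.14 for CTD-2170G1.2, -0.065 for pri-3-hsa-mir-378a, -0.043 for MAEA and -0.14 for ADCY5. With median centring of 6 arrays they were in Sup -0.13 for MFSD1, -0.014 for MAEA and -0.20 for CREB3L4, and in IP+Sup -0.22 for MFSD1, -0.045 for CTD-2170G1.2, -0.042 for pri-3-hsa-mir-378a, -0.065 for MAEA and -0.066 for ADCY5. With quantile normalization of 6 arrays they were in Sup -0.14 for MFSD1, -0.0024 for pri-3-hsa-mir-378a, -0.057 for MAEA, -0.25 for CREB3L4 and -0.012 for ADCY5, and in IP+Sup -0.19 for MFSD1, -0.016 for CTD-2170G1.2, -0.035 for pri-3-hsa-mir-378a, -0.050 for MAEA and -0.046 for ADCY5. Without spots of uneven background they were in Sup -0.30 for pri-3-hsa-mir-378a, and in IP+Sup -0.62 for pri-3-hsa-mir-378a. With the scan as a block they were in IP+Sup 0.44 for PPIP5K2, 0.31 for CENPQ and 0.25 for CREB3L4. With the processed signal they were in IP+Sup 0.060 for CREB3L4. With normexp they were in IP+Sup 0.10 for CREB3L4.

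Leaving out 1 array at a time, differences that turned sign in Sup ranged from -0.30 to 1.04 for WRN, from -0.42 to 1.09 for POGLUT2, from -0.25 to 1.03 for SMARCAD1, from -0.22 to 1.01 for GPX6, from -0.24 to 0.93 for ZZZ3, from -0.19 to 0.88 for SERPIND1, from -0.33 to 0.96 for HPS1, from -1.42 to 0.027 for PPIP5K2, from -0.21 to 0.96 for CPS1, from -0.40 to 0.96 for RP11-112J3.15, from -1.42 to 0.086 for CENPQ, from -0.34 to 0.93 for RPAP3, from -0.65 to 0.67 for MFSD1, from -0.30 to 0.77 for CTD-2170G1.2, from -0.30 to 0.75 for pri-3-hsa-mir-378a, from -0.24 to 0.66 for MAEA, from -0.41 to 0.47 for CREB3L4 and from -0.38 to 0.79 for ADCY5.

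Leaving out 1 array at a time, differences that turned sign in IP+Sup ranged from -0.30 to 1.57 for MFAP5, from -0.38 to 1.49 for EIF5B, from -0.57 to 1.46 for WRN, from -0.33 to 1.45 for POGLUT2, from -0.49 to 1.58 for SMARCAD1, from -0.43 to 0.95 for GPX6, from -0.50 to 1.34 for ZZZ3, from -0.31 to 0.91 for SERPIND1, from -0.66 to 1.05 for HPS1, from -1.47 to 0.44 for PPIP5K2, from -0.58 to 1.19 for CPS1, from -0.89 to 1.13 for RP11-112J3.15, from -1.51 to 0.32 for CENPQ, from -0.48 to 1.48 for RPAP3, from -0.95 to 0.63 for MFSD1, from -0.76 to 0.85 for CTD-2170G1.2, from -0.62 to 0.82 for pri-3-hsa-mir-378a, from -0.65 to 0.74 for MAEA, from -0.78 to 0.47 for CREB3L4 and from -0.69 to 0.79 for ADCY5.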
